A study of Mus musculus with 15 samples.

Results

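The genes Spi1, Cebpa, Cebpb, Cebpd, Maf, Runx1, Klf4, Klf2 and Bhlhe41 encode transcription factors that establish or maintain the macrophage lineage. They were taken by name and are 9 of the 51763 genes counted in bone marrow-derived macrophages (BMDMs), which are macrophages grown in culture from mouse bone marrow with macrophage colony-stimulating factor. All 9 had reads in every library and all 9 passed the filter on low counts.

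RNA was sequenced from BMDMs kept for 24 h with PBS, with HMGB1 at 5 µg/mL in its fully reduced (frHMGB1) or its disulfide form (dsHMGB1), with 1 µg/mL of LPS-EK (LPS), or with LPS-EK and 20 ng/mL IFN-γ together (LPS/IFNγ), in 3 libraries per condition. HMGB1 is a nuclear protein that acts as an alarm signal outside the cell, and the study describes its inflammatory activity there as regulated by its redox form. The frHMGB1 was made by the study's laboratory and the dsHMGB1 was a gift, and for LPS/IFNγ the LPS concentration was 1 µg/mL in the treatment labels and 100 ng/mL in their protocol text and in the study's methods. The cells of all conditions came from wild-type female C57BL/6NTac mice of 8 to 10 weeks, were cultured for 10 days according to the labels and 8 to 9 days according to the methods, and were pooled from 5 mice before seeding, so that the libraries of a condition are technical replicates and every p covers the spread between wells and libraries and not between mice.

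A macrophage is specified by a small set of transcription factors that act together. PU.1, the product of Spi1, and the CCAAT/enhancer-binding proteins (C/EBPs) occupy most macrophage enhancers side by side, RUNX1 is needed earlier, when blood stem cells form, and MAF acts in mature macrophages. Toll-like receptor 4, the receptor for LPS, changes the expression of several of these factors, in particular of C/EBPβ and C/EBPδ, which drive inflammatory genes.

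Total counts lay between 40934540 and 80925478 per library, and 16919 genes were tested. Markers of macrophages were high in every library, with a summed level of 13520 to 27281 CPM (counts scaled to library size), and Csf1r, the receptor for macrophage colony-stimulating factor, was present throughout. Of the markers of other cells, erythroid markers were at 0, neutrophil markers summed to 1.97 to 5.56 CPM with S100a9, Ly6g, Mpo and Retnlg at 0, lymphocyte markers to at most 0.152 CPM with Cd3e and Cd3g at 0, mast cell and basophil markers to at most 0.281 CPM with Ms4a2 at 0, and fibroblast markers to between 118 and 282 CPM, mostly Col1a1 and Col1a2. The summed markers of dendritic cells were between 3.35 and 5.17 CPM in PBS, frHMGB1 and dsHMGB1, between 7.81 and 8.62 in LPS and at least 13.8 in LPS/IFNγ, with Flt3 at 6 and Siglech at 2 counts in all libraries together. Over the libraries Zbtb46 ranged from 0.044 to 7.67, Xcr1 from 0.631 to 7.13 and Clec9a from 0.106 to 3.51 CPM, and their part in the results was not tested. In bulk RNA, fewer cells of a type and less RNA per cell cannot be told apart.

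PBS replicate 3 stood apart from its group. Its correlation with the other PBS libraries over all genes was 0.9703 and 0.9729, where all other pairs of replicates had at least 0.9972 (Pearson's r of log2(CPM + 1)). Its deviation from the mean of the other PBS libraries went with exon length, with a Spearman rho of -0.587 across 10102 protein-coding genes and median log2 deviations of 0.62 among the shortest and -0.75 among the longest of 3 equal parts of these genes. Among the lineage factors it held 2.88 times the Cebpb, 2.21 times the Cebpd, 1.87 times the Klf2 and 1.55 times the Spi1 of the mean of the other PBS libraries, and 0.359 times their Klf4. The same relation to length, of smaller size, was seen in dsHMGB1 replicate 1, with a rho of -0.616 and medians of 0.17 and -0.20. Calls that changed without either library are given both ways beside the result.

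Levels are given below as normalized counts, which are counts divided by DESeq2's size factors, and fold changes are DESeq2's log2 values with their standard error (SE). Calls rest on edgeR (quasi-likelihood test, Benjamini-Hochberg adjustment over all 16919 genes, threshold 0.05), as does each adjusted p below. Per kilobase of exon, Spi1 and Cebpa were the most abundant of the 9 in PBS, at 227 ± 31.0 and 153 ± 4.67 RPKM (mean ± SD, n = 3), which are reads per kilobase of exon scaled to library size. Cebpb followed at 65.3 ± 34.2, then Bhlhe41 at 15.7 ± 2.40, Maf at 11.0 ± 2.88, Runx1 at 8.13 ± 1.85, Klf2 at 7.08 ± 1.71, Klf4 at 3.00 ± 1.64 and Cebpd at 2.85 ± 0.996. In LPS that order was different. Spi1 was again first at 342 ± 9.49 RPKM and Cebpb next at 163 ± 8.61, then Cebpd at 43.2 ± 1.79, and Cebpa lay at 3.63 ± 0.141, beside Bhlhe41 at 3.48 ± 0.00521 and Runx1 at 3.38 ± 0.132.

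**Figure D1:**
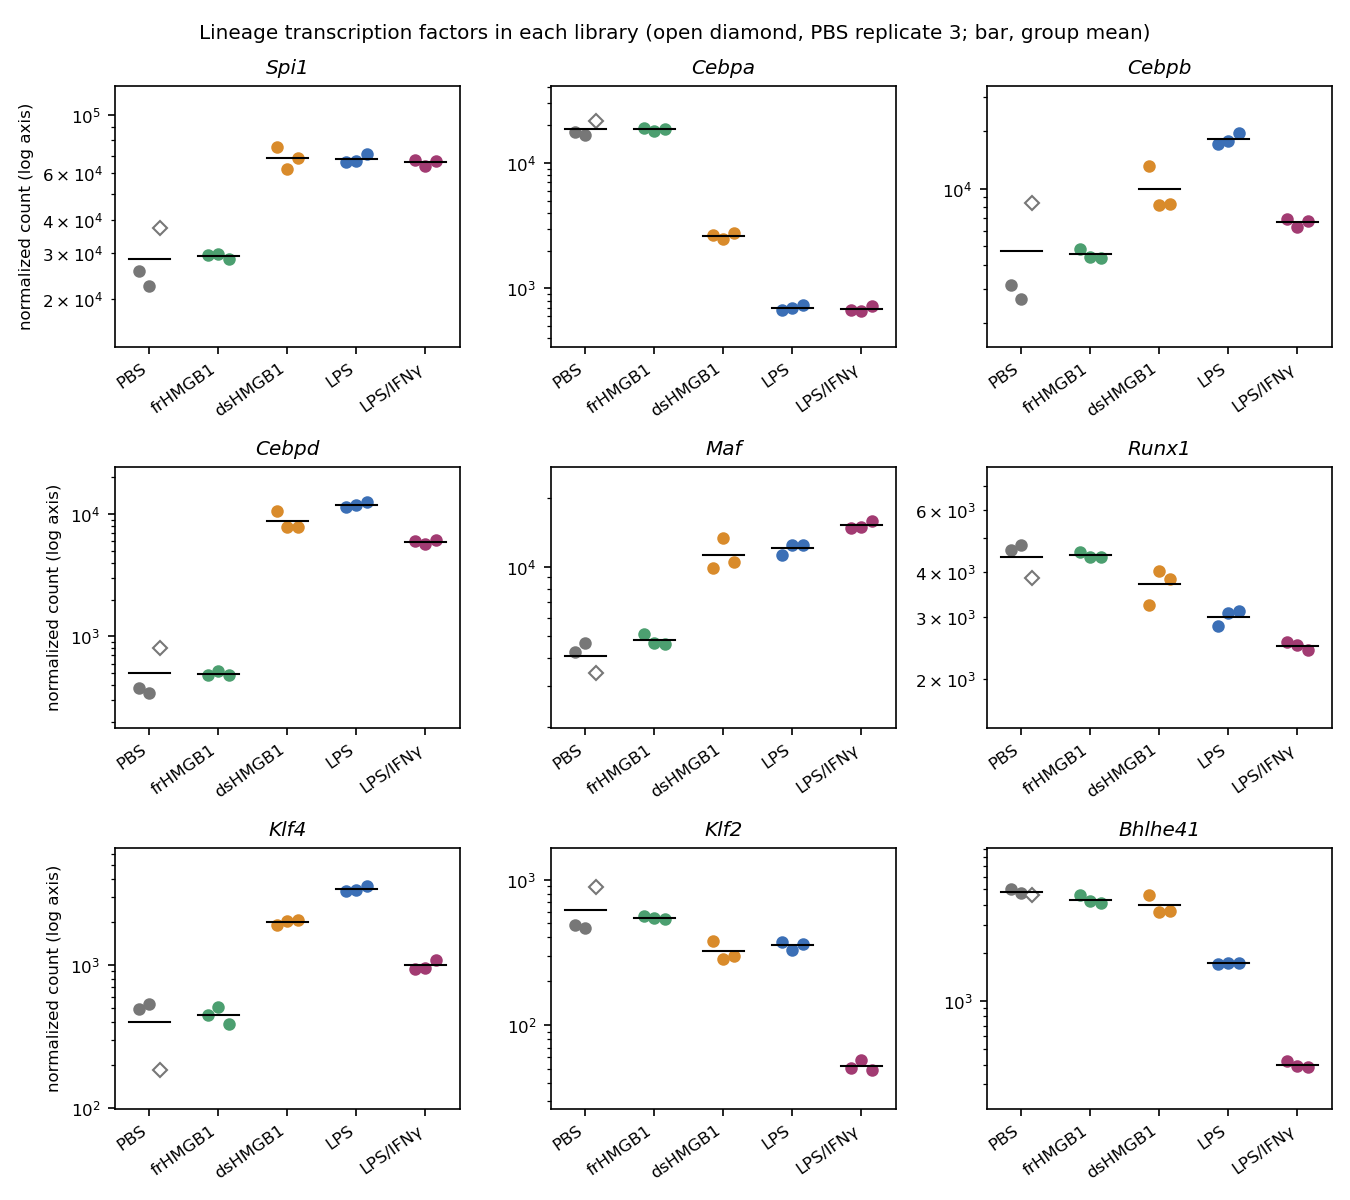
Normalized counts (log axis) of the 9 lineage factors in each of the 15 libraries, by condition. Filled points are libraries, the open diamond is PBS replicate 3 and the bar is the mean of the 3 libraries. Cebpa falls from 17629 in PBS replicate 1 to 669 in LPS replicate 1, while Cebpd rises from 378 to 11361 between the same libraries.

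Spi1 (ENSMUSG00000002111, chr2:91082390-91115756, plus strand, GRCm38) encodes PU.1, the master regulator of the myeloid lineage. Its normalized counts were 25688, 22487 and 37244 in PBS and 29418, 29771 and 28388 in frHMGB1. They were 75639, 62107 and 68408 in dsHMGB1, 66378, 66736 and 70769 in LPS, and 67338, 63885 and 67064 in LPS/IFNγ. Every library of the latter 3 conditions lay above every PBS and frHMGB1 library, and those 3 conditions overlapped each other. The log2 fold change over PBS was 1.27 (SE 0.16, adjusted p = 3.12e-06) in dsHMGB1, 1.26 (SE 0.16, adjusted p = 3.28e-06) in LPS and 1.22 (SE 0.16, adjusted p = 3.14e-06) in LPS/IFNγ. Between dsHMGB1 and LPS it differed by 0.02, with a 95% interval of -0.30 to 0.33. In frHMGB1 the value over PBS was 0.04 (adjusted p = 0.853).

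Of the C/EBP family, C/EBPα (Cebpa) directs progenitors into the myeloid lineage, while C/EBPβ (Cebpb) and C/EBPδ (Cebpd) belong to the inflammatory response. Each of the 3 genes is a single exon block. Cebpa (ENSMUSG00000034957, chr7:35119293-35121928, plus strand) had 17629, 16509 and 21464 normalized counts in PBS and 19022, 18017 and 18687 in frHMGB1. It had 2654, 2474 and 2755 in dsHMGB1, 669, 704 and 742 in LPS, and 668, 657 and 727 in LPS/IFNγ. All libraries of dsHMGB1 lay below all those of PBS and frHMGB1 and above all those of LPS and LPS/IFNγ, which overlapped. Cebpa fell, with a log2 value over PBS of -2.82 (SE 0.11, adjusted p = 4.34e-11) in dsHMGB1, -4.72 (SE 0.11, adjusted p = 5.13e-13) in LPS and -4.76 (SE 0.11, adjusted p = 4.1e-13) in LPS/IFNγ, the last of these a 27.1-fold lower level. It was 3.73-fold higher in dsHMGB1 than in LPS (log2 1.90, SE 0.11, adjusted p = 2.52e-08), and the difference between LPS/IFNγ and LPS was -0.04, with a 95% interval of -0.28 to 0.19.

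Cebpb (ENSMUSG00000056501, chr2:167688915-167690418, plus strand) had 3169, 2661 and 8388 normalized counts in PBS and 4871, 4409 and 4376 in frHMGB1. It had 13175, 8252 and 8332 in dsHMGB1, 17166, 17736 and 19392 in LPS, and 6988, 6333 and 6804 in LPS/IFNγ. The LPS libraries were above all others, and PBS replicate 3 was above all LPS/IFNγ libraries and above 2 of those of dsHMGB1. The log2 fold change over PBS was 1.07 (SE 0.34, adjusted p = 0.0119) in dsHMGB1, 1.93 (SE 0.34, adjusted p = 1.78e-04) in LPS and 0.50 (SE 0.34, adjusted p = 0.177) in LPS/IFNγ, which is no call. Without PBS replicate 3, edgeR's log2 values were 1.73 in dsHMGB1 (adjusted p = 1.89e-08), 2.58 in LPS (7.56e-11) and 1.13 in LPS/IFNγ (2.38e-06), and without dsHMGB1 replicate 1 that of dsHMGB1 was 0.84 (0.057). The call in dsHMGB1 was also lost when only its own and the PBS libraries were fitted (adjusted p = 0.127). Cebpb was lower in LPS/IFNγ than in LPS (log2 -1.43, SE 0.34, adjusted p = 0.00515). On the opposite strand, 312 exon bases of Cebpb are shared with Tmem189, whose normalized counts went the other way, from between 11753 and 15741 in PBS to between 5519 and 5789 in LPS, and whether the counting used strand is not given in the sources used here.

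Cebpd (ENSMUSG00000071637, chr16:15887286-15891031, plus strand) was the factor with the largest rise of the 9 in each of dsHMGB1, LPS and LPS/IFNγ. Its normalized counts were 378, 345 and 798 in PBS and 482, 520 and 486 in frHMGB1, against 10503, 7781 and 7883 in dsHMGB1, 11361, 11824 and 12622 in LPS, and 5969, 5701 and 6127 in LPS/IFNγ. No library of the latter 3 conditions came near those of PBS, the highest of which was again replicate 3, and the 3 conditions did not overlap each other. The log2 fold change over PBS was 4.11 (SE 0.26, adjusted p = 1.5e-08) in dsHMGB1, 4.56 (SE 0.26, adjusted p = 4.03e-09) in LPS and 3.56 (SE 0.26, adjusted p = 2.93e-08) in LPS/IFNγ. In LPS/IFNγ it was 2.01-fold lower than in LPS (log2 -1.01, adjusted p = 0.00565). Its exons share 562 bases with Spidr on the opposite strand, which had 488, 476 and 174 normalized counts in PBS and at most 602 in any library. In PBS replicates 1 and 2 this was above the level of Cebpd itself, and here too it is not given whether the counting used strand.

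The sequence before the transcription start is shown for Cebpa and Cebpb, since these paralogs moved in opposite directions under the same stimulation. RefSeq promoter windows of GRCm38.p6 were matched for 6 of the 9 factors (Cebpa, Cebpb, Klf2, Klf4, Runx1 and Bhlhe41), and not for Spi1, Cebpd and Maf. The 250 bases before the start are printed 5′ to 3′ in the direction of the gene, in lower case, with matches to a short list of motifs in capitals. The motifs, searched on both strands, were TTGCG (part of a C/EBP site), TGACG (part of a cyclic AMP response element), CACGTG (an E-box, as bound by BHLHE41 and MITF), TGTGGT (RUNX), GAGGAA (PU.1), CACCC (KLF) and the palindromic core of the MEF2 motif with any base at its centre.
Cebpa, chr7:35119043-35119292, plus strand: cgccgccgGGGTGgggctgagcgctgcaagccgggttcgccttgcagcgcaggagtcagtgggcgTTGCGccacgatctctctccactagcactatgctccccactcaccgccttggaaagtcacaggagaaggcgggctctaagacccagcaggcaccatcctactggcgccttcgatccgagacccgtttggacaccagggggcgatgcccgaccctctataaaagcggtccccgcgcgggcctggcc
Cebpb, chr2:167688665-167688914, plus strand: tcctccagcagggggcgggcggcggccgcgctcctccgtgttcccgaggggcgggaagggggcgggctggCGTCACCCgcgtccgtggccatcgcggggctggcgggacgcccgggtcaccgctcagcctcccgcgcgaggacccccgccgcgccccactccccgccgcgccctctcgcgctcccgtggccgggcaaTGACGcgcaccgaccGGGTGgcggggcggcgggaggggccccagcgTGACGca
The Cebpb window held 3 matches to TGACG, which start 180, 53 and 7 bases before its end and of which the first overlaps a match to CACCC that starts 177 bases before the end. The Cebpa window held none, and had 1 match to TTGCG, 185 bases before its end. Of 32536 windows of this length, 17.9% held TGACG, 14.6% TTGCG, 52.1% CACCC, 6.04% CACGTG, 14.0% TGTGGT, 23.4% GAGGAA and 3.22% the MEF2 core. A match of so few letters is a description of the sequence and not a binding site. G and C made up 81.6% of the Cebpb window and 66.4% of that of Cebpa.

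Because both members of a ratio are counted in the same library, the ratio does not depend on how libraries are scaled. There were 0.18, 0.161 and 0.391 reads of Cebpb for each read of Cebpa in the 3 PBS libraries and 0.256, 0.245 and 0.234 in frHMGB1. That ratio was 4.96, 3.34 and 3.02 in dsHMGB1, 25.6, 25.2 and 26.1 in LPS, and 10.5, 9.65 and 9.36 in LPS/IFNγ. The balance of the pair was thus on the side of Cebpa in every PBS and frHMGB1 library and on the side of Cebpb in every other library, and the 3 stimulated conditions did not overlap. For Cebpd to Cebpa the geometric mean was 0.0255 for PBS and 0.0267 for frHMGB1, and it reached 3.29 with dsHMGB1, 8.68 with LPS/IFNγ and 16.9 with LPS. With 3 libraries against 3, the exact two-sided permutation test gave p = 0.1 for each of dsHMGB1, LPS and LPS/IFNγ against PBS and for each pair of these 3, which is the smallest p this design allows, and p = 1.0 for frHMGB1 against PBS, for both ratios. Over the 24 comparisons of ratios, those of Klf4 to Klf2 below included, an exact permutation p of 0.1 became 0.114 after Benjamini-Hochberg adjustment.

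**Figure D2:**
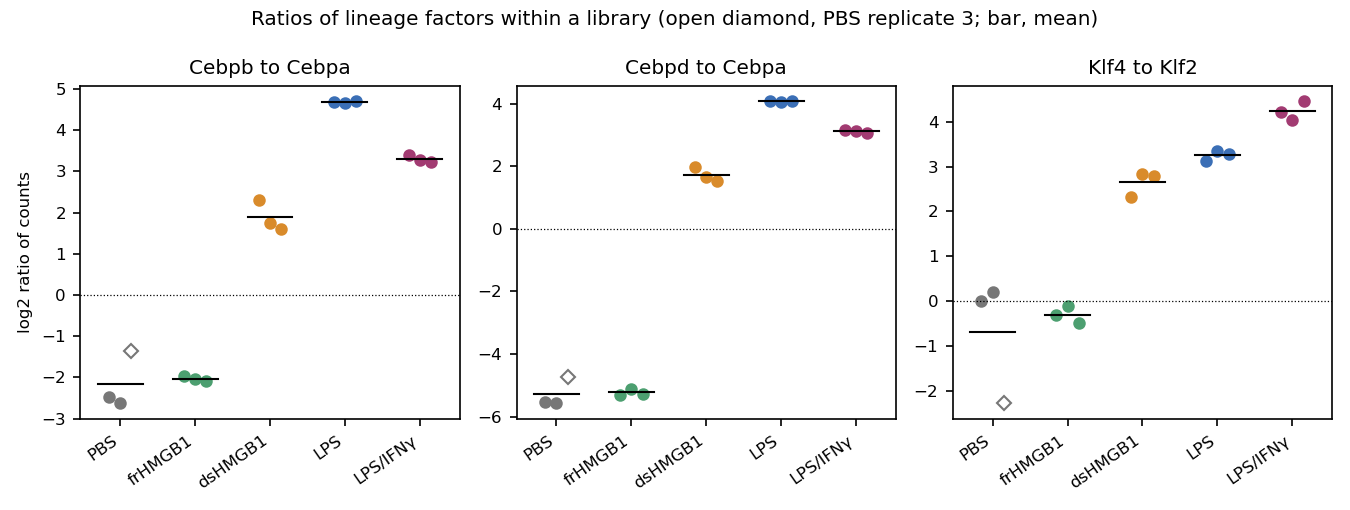
Log2 ratio of the counts of 2 lineage factors in the same library, by condition, for Cebpb to Cebpa, Cebpd to Cebpa and Klf4 to Klf2. Points are libraries, the open diamond is PBS replicate 3, bars are means of 3 libraries and the dotted line marks equal counts. All libraries of dsHMGB1, LPS and LPS/IFNγ lie above the line and above PBS in all 3 ratios.

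Maf (ENSMUSG00000055435, chr8:115682942-115707794, minus strand) encodes c-MAF, which takes part in macrophage maturation and drives Il10. Its normalized counts were 4227, 4625 and 3422 in PBS and 5066, 4621 and 4597 in frHMGB1. They were 9928, 13428 and 10478 with dsHMGB1, 11297, 12513 and 12476 with LPS, and 14835, 14885 and 15813 with LPS/IFNγ. All stimulated libraries other than those of frHMGB1 were above all PBS libraries, LPS/IFNγ was above LPS in every library, and dsHMGB1 and LPS overlapped. Maf rose by a log2 of 1.46 (SE 0.14, adjusted p = 1.82e-06) in dsHMGB1, 1.56 (SE 0.14, adjusted p = 8.19e-07) in LPS and 1.89 (SE 0.14, adjusted p = 9.14e-08) in LPS/IFNγ. It was lower in dsHMGB1 than in LPS/IFNγ (log2 -0.43, SE 0.14, adjusted p = 0.037), and the value of 0.33 for LPS/IFNγ over LPS had an adjusted p of 0.0749, or 0.00643 without PBS replicate 3. The former call was lost when any of 11 single libraries was left out, with adjusted p-values up to 0.177.

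Runx1 (ENSMUSG00000022952, chr16:92601466-92826149, minus strand) encodes a factor that is best known from the formation of blood stem cells. It had 4606, 4780 and 3850 normalized counts in PBS, 4549, 4425 and 4403 in frHMGB1, 3234, 4039 and 3827 in dsHMGB1, 2817, 3070 and 3112 in LPS, and 2540, 2498 and 2419 in LPS/IFNγ. The LPS and LPS/IFNγ libraries lay below all others, with those of LPS/IFNγ lowest, and PBS and dsHMGB1 overlapped through PBS replicate 3. It fell, with a log2 value of -0.56 (SE 0.11, adjusted p = 4.02e-04) in LPS and -0.83 (SE 0.11, adjusted p = 2.43e-05) in LPS/IFNγ, while the value of -0.25 in dsHMGB1 (SE 0.11, adjusted p = 0.0743) became a call without PBS replicate 3 (-0.38 by edgeR, adjusted p = 4e-04). Runx1 was higher in dsHMGB1 than in LPS by 0.30 (adjusted p = 0.0371) and than in LPS/IFNγ by 0.57 (adjusted p = 0.00141). The first of these calls was lost when any of 11 single libraries was left out, with adjusted p-values up to 0.17.

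KLF4 and KLF2 are zinc finger factors of the Krüppel-like family. Klf4 is active in monocyte differentiation, and Klf2 is known to restrain inflammatory activation of myeloid and endothelial cells. Klf4 (ENSMUSG00000003032, chr4:55527143-55532466, minus strand) had 488, 533 and 183 normalized counts in PBS, 448, 509 and 384 in frHMGB1, 1901, 2041 and 2067 in dsHMGB1, 3288, 3359 and 3549 in LPS, and 942, 946 and 1085 in LPS/IFNγ. The 3 stimulated conditions were above PBS and frHMGB1 in every library and did not overlap each other, with LPS highest and LPS/IFNγ lowest. The log2 rise over PBS was 2.31 (SE 0.28, adjusted p = 2.94e-05) in dsHMGB1, 3.08 (SE 0.28, adjusted p = 1.69e-06) in LPS and 1.30 (SE 0.29, adjusted p = 0.00212) in LPS/IFNγ. Klf4 was 3.43-fold lower in LPS/IFNγ than in LPS (log2 -1.78, SE 0.28, adjusted p = 6.11e-04) and 2.02-fold higher in dsHMGB1 than in LPS/IFNγ (log2 1.01, adjusted p = 0.0134).

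Klf2 (ENSMUSG00000055148, chr8:72319033-72321656, plus strand) had 489, 467 and 892 normalized counts in PBS, 559, 547 and 536 in frHMGB1, 379, 285 and 300 in dsHMGB1, 375, 329 and 363 in LPS, and 50.9, 57.9 and 49.3 in LPS/IFNγ. The LPS/IFNγ libraries lay far below all others, at 48 to 55 reads each before normalization, while dsHMGB1 and LPS overlapped. Klf2 fell in all 3, with a log2 value of -0.93 (SE 0.23, adjusted p = 0.00156) in dsHMGB1, -0.79 (SE 0.23, adjusted p = 0.00233) in LPS and -3.54 (SE 0.26, adjusted p = 1.01e-08) in LPS/IFNγ. In LPS/IFNγ it was 6.76-fold lower than in LPS (log2 -2.76, SE 0.26, adjusted p = 1.28e-06) and 6.10-fold lower than in dsHMGB1. When only the libraries of the 2 groups compared were fitted, the calls in dsHMGB1 (adjusted p = 0.0508) and LPS (adjusted p = 0.0796) were lost. Without PBS replicate 3, edgeR's log2 value was -0.61 for dsHMGB1, -0.48 for LPS and -3.25 for LPS/IFNγ, all called.

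The windows before the starts of this pair are shown for the same reason as those of the C/EBP pair. That of Klf2 is 221 bases long, because it ends before the GENCODE start, which lies upstream of the RefSeq start.
Klf4, chr4:55532476-55532725, minus strand: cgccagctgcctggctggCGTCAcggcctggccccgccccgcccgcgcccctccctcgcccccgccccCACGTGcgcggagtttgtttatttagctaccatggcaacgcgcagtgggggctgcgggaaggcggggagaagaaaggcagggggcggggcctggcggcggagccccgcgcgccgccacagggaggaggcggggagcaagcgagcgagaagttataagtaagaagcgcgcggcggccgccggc
Klf2, chr8:72318812-72319032, plus strand: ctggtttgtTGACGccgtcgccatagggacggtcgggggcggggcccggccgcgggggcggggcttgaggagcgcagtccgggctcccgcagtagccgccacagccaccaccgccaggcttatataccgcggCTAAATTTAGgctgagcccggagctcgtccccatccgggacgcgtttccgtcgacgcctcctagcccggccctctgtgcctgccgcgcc
Klf4 had 1 match to TGACG and 1 to CACGTG, 232 and 182 bases before the window's end. Klf2 had 1 match to TGACG, 212 bases before the end, and 1 to the MEF2 core, 89 bases before it. Of 32524 windows of 221 bases, 15.1% held TGACG and 2.87% the MEF2 core. The number of Klf4 reads for each Klf2 read was 0.997, 1.14 and 0.205 in PBS and 0.801, 0.931 and 0.716 in frHMGB1. It was 5.02, 7.15 and 6.89 in dsHMGB1, 8.77, 10.2 and 9.77 in LPS, and 18.5, 16.3 and 22.0 in LPS/IFNγ. PBS and frHMGB1 overlapped, and dsHMGB1, LPS and LPS/IFNγ lay above both and did not overlap each other. The exact two-sided permutation test gave p = 1.0 for frHMGB1 against PBS and the smallest possible p of 0.1 for the other 7 comparisons.

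Bhlhe41 (ENSMUSG00000030256, chr6:145858243-145865558, minus strand) encodes a repressor of the basic helix-loop-helix family that, with its relative BHLHE40, is known for a role in tissue-resident macrophages. It had 5001, 4719 and 4648 normalized counts in PBS, 4599, 4230 and 4114 in frHMGB1, 4649, 3609 and 3652 in dsHMGB1, 1699, 1739 and 1742 in LPS, and 423, 390 and 386 in LPS/IFNγ. The LPS libraries lay below all those of PBS and of both HMGB1 forms, and the LPS/IFNγ libraries below those of LPS. Bhlhe41 fell, with a log2 value of -1.47 (SE 0.11, adjusted p = 4.03e-08) in LPS and -3.58 (SE 0.12, adjusted p = 1.66e-11) in LPS/IFNγ, a 12.0-fold lower level. In dsHMGB1 the value was -0.27 (SE 0.11, adjusted p = 0.0448), a call that was lost when any of 13 single libraries was left out (adjusted p between 0.0622 and 0.179). That call was also lost when only the dsHMGB1 and PBS libraries were fitted (adjusted p = 0.242). Bhlhe41 was 2.30-fold higher in dsHMGB1 than in LPS (SE of the log2 value 0.11, adjusted p = 2.9e-06) and 9.94-fold higher than in LPS/IFNγ (log2 3.31, SE 0.12, adjusted p = 3.62e-10).

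**Figure D3:**
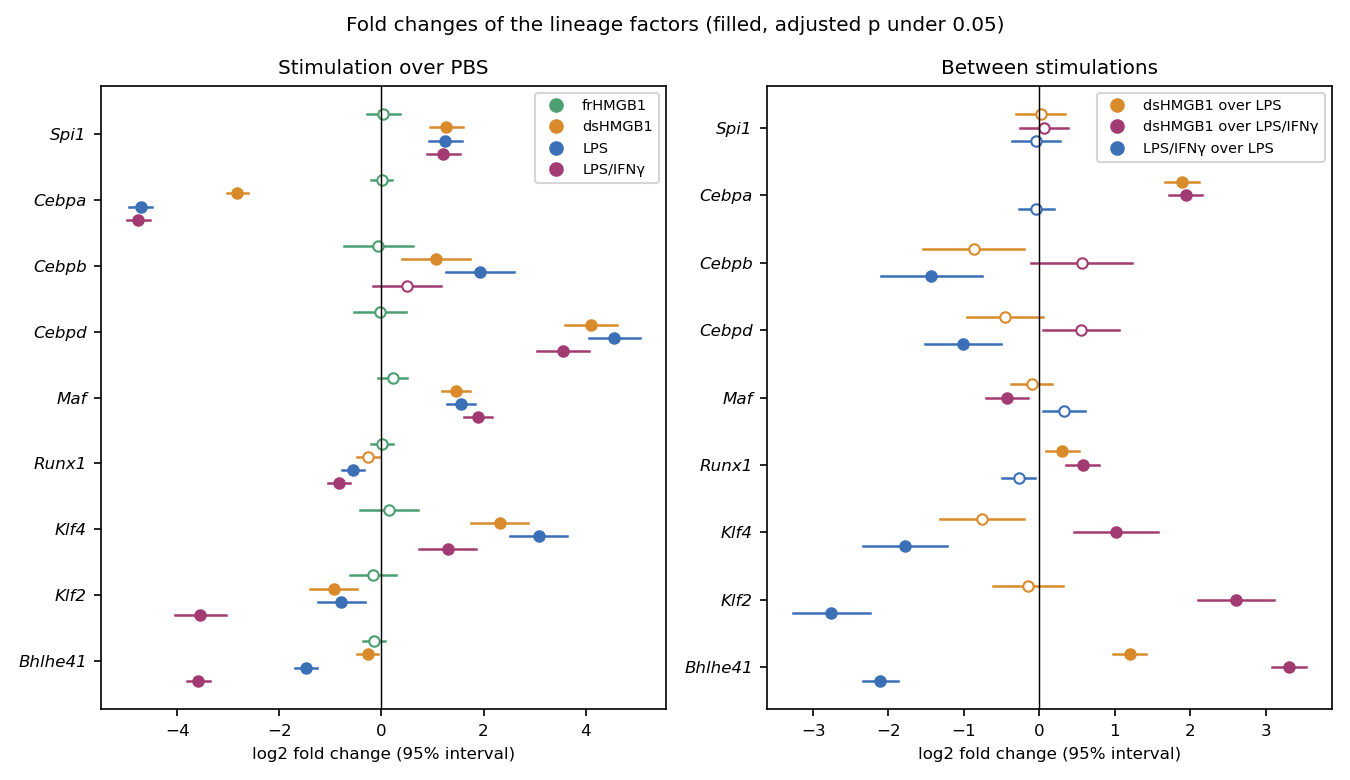
Log2 fold changes of the 9 lineage factors with 95% intervals, for each stimulation over PBS (left) and between stimulations (right). Filled points had an adjusted p under 0.05 in edgeR's quasi-likelihood test and open points did not. Over PBS the points of frHMGB1 lie between -0.16 and 0.22, and those of LPS between -4.72 for Cebpa and 4.56 for Cebpd.

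Counted together, 5 of the 9 factors were called higher (Spi1, Cebpb, Cebpd, Maf and Klf4) and 3 lower (Cebpa, Klf2 and Bhlhe41) in dsHMGB1 than in PBS, where 23.3% of all tested genes were called higher and 24.2% lower. In LPS the same 5 factors were called higher and the other 4 lower, against 26.7% and 36.2% of all tested genes. In LPS/IFNγ 4 were called higher (Spi1, Cebpd, Maf and Klf4) and 4 lower (Cebpa, Runx1, Klf2 and Bhlhe41), against 29.0% and 31.2%. The number of factors called at all, 8, 9 and 8 of 9, was above these shares, and the median size of the log2 fold change of the 9 was 1.27, 1.56 and 1.89, against 0.70, 1.00 and 0.97 over all tested genes. The 9 were chosen with earlier results of these data known, so this excess is a description and not a test. A log2 fold change past 2 in either direction, the cut-off that the study used, was reached by Cebpd and Klf4 upward and Cebpa downward in dsHMGB1 and in LPS, and by Cebpd upward and Cebpa, Klf2 and Bhlhe41 downward in LPS/IFNγ. For Klf4 in dsHMGB1 edgeR's value was under 2 without PBS replicate 3 (1.94) and with total-count scaling (1.90). Over all tested genes it was reached upward and downward by 8.43% and 4.78% in dsHMGB1, 10.9% and 14.0% in LPS, and 12.1% and 9.71% in LPS/IFNγ.

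The split of the calls over all genes depended on how libraries were scaled. Scaling to total counts in place of TMM moved the median log2 fold change of all genes over PBS by -0.35 for dsHMGB1, -0.62 for LPS, -0.66 for LPS/IFNγ and 0.02 for frHMGB1. It changed the numbers of genes called higher and lower from 3936 and 4092 to 2615 and 6689 in dsHMGB1, from 4515 and 6121 to 2653 and 9458 in LPS, and from 4914 and 5284 to 2976 and 8782 in LPS/IFNγ. Of the factors' changes over PBS in these 3 conditions, only the uncalled value of Cebpb in LPS/IFNγ changed its sign (to -0.10), the rise of Klf4 in LPS/IFNγ was 0.56 and no longer called (adjusted p = 0.134), and the value of Runx1 in dsHMGB1 became a call (-0.63, adjusted p = 0.00257).

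In frHMGB1 none of the 9 factors was called against PBS, where 1.31% of all tested genes were called higher and 5.69% lower. By edgeR's quasi-likelihood test, 0 of the 9 had an unadjusted p under 0.05, and DESeq2 called 0. The log2 values ranged from -0.16 for Klf2 (95% interval -0.62 to 0.29) to 0.22 for Maf (-0.06 to 0.49), and the widest interval was that of Cebpb (-0.73 to 0.61). Only the libraries of Bhlhe41 did not overlap between the conditions, with 4648 the lowest in PBS and 4599 the highest in frHMGB1, where 20.3% of all tested genes did not overlap. Without PBS replicate 3, Spi1 (log2 0.27 by edgeR, adjusted p = 0.0145), Cebpb (0.64, adjusted p = 0.00601) and Cebpd (0.45, adjusted p = 0.0118) were called higher in frHMGB1 than in PBS, while the calls over all genes went from 222 to 1459 higher and from 963 to 1576 lower.

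Between the HMGB1 forms, 5 factors were called higher in dsHMGB1 than in frHMGB1 (Spi1, Cebpb, Cebpd, Maf and Klf4) and 3 lower (Cebpa, Runx1 and Klf2), against 27.7% and 23.1% of all tested genes (4688 and 3905, the latter 6340 with total-count scaling). The value for Runx1 was small (log2 -0.27, adjusted p = 0.0484) and its call was lost when any of 12 single libraries was left out. That of Cebpb (1.12, adjusted p = 0.0103) was lost without dsHMGB1 replicate 1 (0.84 by edgeR, adjusted p = 0.0543). Bhlhe41 differed by -0.12, with a 95% interval of -0.33 to 0.09, and was called lower without dsHMGB1 replicate 1 (-0.27 by edgeR, adjusted p = 0.0398).

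Against LPS, 3 factors were called higher in dsHMGB1 (Cebpa, Runx1 and Bhlhe41) and 0 lower, where 15.8% and 10.6% of all tested genes were called (2670 and 1791, or 4661 and 885 with total-count scaling). The libraries of dsHMGB1 and LPS did not overlap for 52.9% of all tested genes. Cebpb (log2 -0.87, adjusted p = 0.0735), Klf4 (-0.76, adjusted p = 0.0875) and Cebpd (-0.45, adjusted p = 0.222) had lower values in every dsHMGB1 library than in any LPS library and were not called. All 3 were called lower without PBS replicate 3 (with 4433 and 4032 of all genes called higher and lower), which enters the comparison through the shared estimate of the spread, and DESeq2 called Cebpb and Klf4 with all libraries. Cebpb was also called without dsHMGB1 replicate 1 (-1.10 by edgeR, adjusted p = 0.0388). Against LPS/IFNγ, 5 factors were called higher in dsHMGB1 (Cebpa, Runx1, Klf4, Klf2 and Bhlhe41) and 1 lower (Maf), against 16.5% and 16.7% of all tested genes (2797 and 2824, or 4806 and 1663 with total-count scaling). The libraries of dsHMGB1 and LPS/IFNγ did not overlap for 59.0% of all tested genes. Cebpb (0.56, adjusted p = 0.183) and Cebpd (0.56, adjusted p = 0.0654) were higher in every dsHMGB1 library than in any LPS/IFNγ library and were not called. Without PBS replicate 3 edgeR called both (adjusted p = 6.87e-04 and 1.72e-05), which made 7 factors higher, with 4840 and 4398 of all genes called, and it called both when only the libraries of the 2 groups were fitted (0.0101 and 0.00134).

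LPS/IFNγ differed from LPS by IFN-γ and, in the protocol text and the study's methods, by the LPS concentration (100 ng/mL against 1 µg/mL). In the treatment labels that concentration was 1 µg/mL for both. If it differed, the effects of IFN-γ and of the LPS dose cannot be told apart here. Of the 9 factors 0 were called higher and 5 lower (Cebpb, Cebpd, Klf4, Klf2 and Bhlhe41), where 16.3% and 9.36% of all tested genes were called (2765 and 1583). Without PBS replicate 3 these were 4353 and 4213, with 1 factor higher (Maf) and 6 lower. The median log2 difference of the 9 was -1.01, against 0.003 over all tested genes. Spi1 (-0.04, 95% interval -0.36 to 0.28), Cebpa (-0.04) and Maf (0.33) were not called. Runx1 (-0.27, adjusted p = 0.169) was not called either, but was called lower when PBS replicate 3 was left out (adjusted p = 0.00303 by edgeR).

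The order of the conditions, by mean normalized count, fell into a few patterns. For Cebpb, Cebpd and Klf4 the order among the 3 strong stimulations was LPS, dsHMGB1, LPS/IFNγ. The libraries overlapped in none of these 6 steps, of which edgeR's test called that of Klf4 from dsHMGB1 to LPS/IFNγ with all libraries, and all 6 without PBS replicate 3. Over all tested genes, the libraries did not overlap for 52.9% between dsHMGB1 and LPS and for 59.0% between dsHMGB1 and LPS/IFNγ. For Runx1 and Bhlhe41 the order downward was dsHMGB1, LPS, LPS/IFNγ, with both steps called for Bhlhe41 and the first step alone for Runx1. Spi1 had no called step among the 3 with TMM, while with total-count scaling it was called higher in dsHMGB1 than in LPS (0.35, adjusted p = 0.0214) and LPS/IFNγ (0.38, adjusted p = 0.0118). Cebpa had no called step between LPS and LPS/IFNγ, nor had Klf2 between dsHMGB1 and LPS (log2 -0.15, adjusted p = 0.787). Maf had its highest mean in LPS/IFNγ.

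Around the 9 factors, 33 listed relatives and partners were examined, of which 32 were tested. They were 14 higher and 10 lower in dsHMGB1, 15 and 10 in LPS, and 19 and 9 in LPS/IFNγ, and their median log2 values over PBS were 0.28, 0.56 and 0.75, against -0.10, -0.21 and -0.13 over all tested genes. Of all tested genes 23.3% were called higher and 24.2% lower in dsHMGB1, 26.7% and 36.2% in LPS, and 29.0% and 31.2% in LPS/IFNγ. With total-count scaling the partners called higher were 9 in LPS and 11 in LPS/IFNγ, where 2653 and 2976 of the 16919 tested genes were called higher. The partners were also chosen with earlier results of these data known. In frHMGB1 edgeR called 0, with 2 (Maff and Id2) at an unadjusted p under 0.05 and 1 (Maff) called by DESeq2. Without PBS replicate 3 edgeR called 3 partners higher and 2 lower there, with 1459 and 1576 of all genes. Id3 was then higher by a log2 of 0.52 (adjusted p = 0.00452). Of the small MAF proteins, which lack an activation domain and were picked out after the values were seen, Maff rose by a log2 of 3.78, 5.11 and 5.58 and Mafk by 2.34, 3.13 and 2.94 in dsHMGB1, LPS and LPS/IFNγ, and Mafg by less, 0.74, 0.45 and 0.28.

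Irf8, which pairs with PU.1 on composite sites, rose in all 3 stimulations and did not overlap between any of them. It had 13647, 13345 and 14456 normalized counts in PBS, 27759, 25768 and 27023 in dsHMGB1, 97233, 106904 and 100322 in LPS, and 417230, 423171 and 439303 in LPS/IFNγ. The log2 fold change was 0.96, 2.88 and 4.95 (adjusted p = 1.4e-07, 3.4e-12 and 7.23e-14) for dsHMGB1, LPS and LPS/IFNγ. Bhlhe40, the relative of Bhlhe41, had 6630, 6526 and 3557 in PBS, 2058, 1719 and 2070 in dsHMGB1, 2983, 3145 and 3193 in LPS, and 7680, 8252 and 8037 in LPS/IFNγ. It fell in dsHMGB1 (log2 -1.52, adjusted p = 2.71e-05) and in LPS (-0.84, 0.00118) and was higher by 0.52 in LPS/IFNγ (0.0468), a value that turned to -0.20 with total-count scaling and lost its call under the replicate block (adjusted p = 0.0542) and without any of 12 single libraries.

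Other relatives of the 9 factors were named by the size of their change. Gfi1, a repressor that opposes PU.1, was at 0 in all PBS and frHMGB1 libraries and had 803, 673 and 679 normalized counts in dsHMGB1, 522, 499 and 570 in LPS, and 184, 198 and 229 in LPS/IFNγ. Against 3 counts per PBS library this was at least 293-fold, 216-fold and 83.2-fold higher. Among those that fell, Tfeb, a regulator of lysosomal genes, had 6217, 5833 and 10915 in PBS and between 475 and 591 in LPS, and was 3.04-fold, 14.6-fold and 10.6-fold lower in dsHMGB1, LPS and LPS/IFNγ (adjusted p = 6.21e-06, 1.08e-09 and 3.15e-09). The log2 values of Egr2 were -1.43, -1.87 and -3.13 and those of Id3, an inhibitor of basic helix-loop-helix factors, -1.51, -1.47 and -4.60, with adjusted p-values of at most 2.8e-04. Id3 in PBS went from 2246 to 5701, the latter in replicate 3, and in LPS/IFNγ from 127 to 175.

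**Figure D4:**
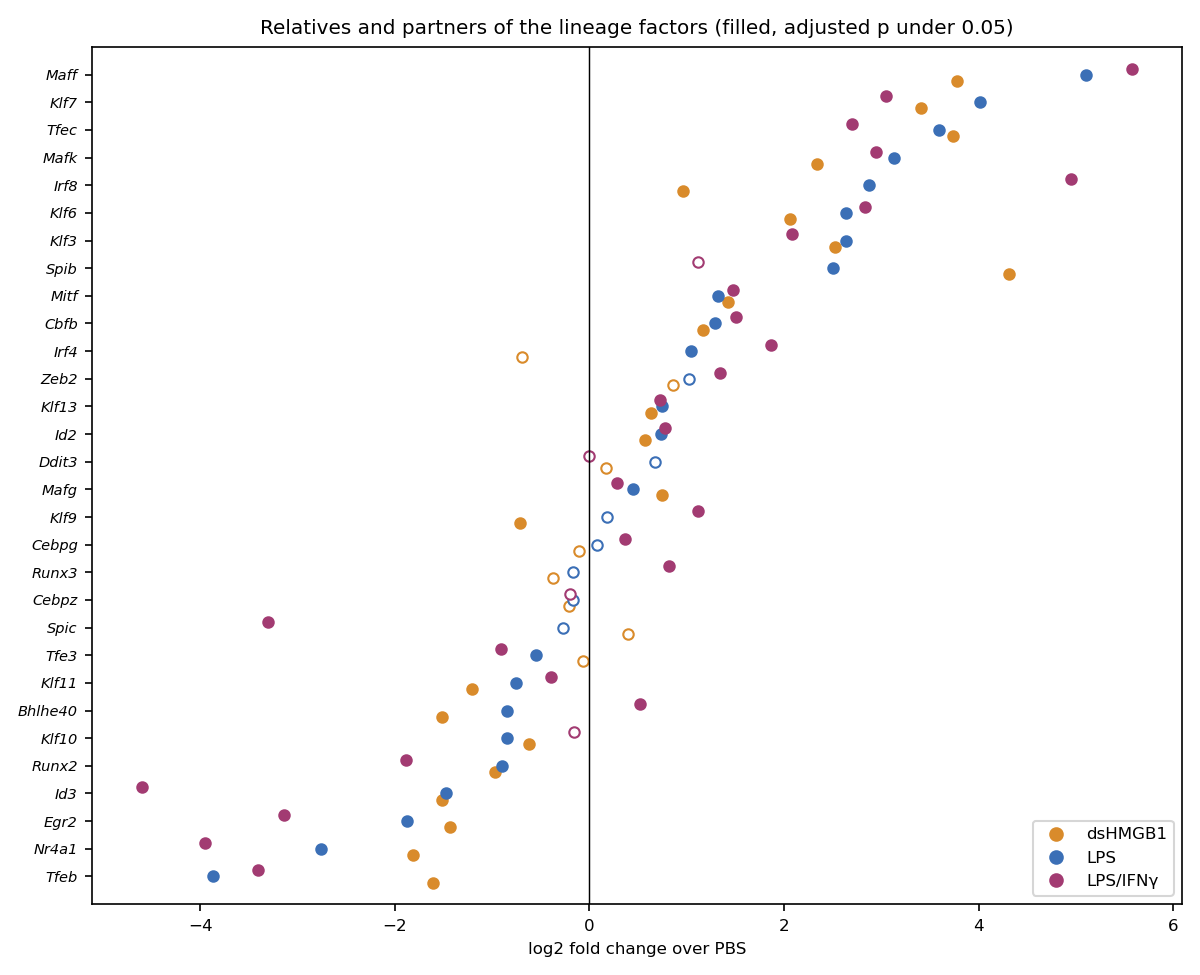
Log2 fold change over PBS of 30 listed relatives and partners in dsHMGB1, LPS and LPS/IFNγ, ordered by LPS. Filled points had an adjusted p under 0.05 in edgeR's quasi-likelihood test, and Gfi1, which was at 0 in PBS, is among the genes not drawn. Maff and Klf7 lie at the upper end and Tfeb and Nr4a1 at the lower end, and Irf8 runs from 0.96 in dsHMGB1 to 4.95 in LPS/IFNγ.

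Of 24 macrophage genes known to lie downstream of these factors, 22 were tested. In dsHMGB1 10 were higher and 1 lower than in PBS, in LPS 12 and 2, in LPS/IFNγ 12 and 3, and in frHMGB1 2 (Csf2ra and Lcn2) and 0, with medians over PBS of 0.56, 1.06 and 1.13 in the first 3. The shares and medians over all tested genes in those 3 conditions are those given for the partners, and this list too was chosen with earlier results known. In frHMGB1 1.31% of all tested genes were called higher and 5.69% lower. Lcn2 had only 3 to 14 reads per library there. With protein-coding genes alone 0 downstream genes were called higher in frHMGB1 (Lcn2 adjusted p = 0.0518 by edgeR). With total-count scaling 3, 6 and 8 of the 22 downstream genes were called lower in dsHMGB1, LPS and LPS/IFNγ, where 6689, 9458 and 8782 of the 16919 tested genes were called lower. Without PBS replicate 3, 9 in place of 2 were called higher in frHMGB1, where the calls over all genes went from 222 to 1459. Csf1r, a direct target of PU.1, had 136150, 135663 and 92346 normalized counts in PBS, 136038, 145686 and 149119 in dsHMGB1, 84527, 90982 and 92871 in LPS, and 90133, 90448 and 92471 in LPS/IFNγ. It was lower in LPS (log2 -0.44, adjusted p = 0.00627) and LPS/IFNγ (-0.42, adjusted p = 0.0135), with PBS replicate 3 at the level of LPS, and the second call was lost when either of 2 single libraries was left out (adjusted p up to 0.0637). In dsHMGB1 the value was 0.24 (adjusted p = 0.2), or -0.14 with total-count scaling. Il6, a target of C/EBPβ, had at most 9.39 normalized counts in PBS and 2.14 in frHMGB1 and between 3721 and 6009 in dsHMGB1, 49119 and 53199 in LPS, and 22893 and 23114 in LPS/IFNγ. Lcn2, another C/EBP target, had 2 reads in 1 PBS library and 0 in the others, and between 158 and 225 normalized counts in dsHMGB1, 524 and 600 in LPS, and 40.0 and 53.0 in LPS/IFNγ. Both genes were highest in LPS, as were Cebpb, Cebpd and Klf4 by their means. Il6 was higher in LPS/IFNγ than in dsHMGB1, while Lcn2, Cebpb, Cebpd and Klf4 had higher means in dsHMGB1 than in LPS/IFNγ. Whether Il6 and Lcn2 followed any of these factors was not tested. Of genes chosen after their values were seen, Il10, a target of MAF, rose by a log2 of 2.63 with dsHMGB1, 3.68 with LPS/IFNγ and 6.28 with LPS, while the complement genes C1qa, C1qb and C1qc were not called in any of the 3 conditions and lay between -0.11 and 0.45.

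For each factor, the genes whose log2(normalized count + 1) followed it most closely over the 15 libraries were found among 10101 other protein-coding genes with a mean of at least 100. The points are libraries of 5 conditions, so these correlations describe the differences between conditions. Spi1 was followed by Rfc3 (Pearson's r 0.9894), Ncf1 (0.9886) and Fabp3 (0.9878), Cebpa by Mfsd11 (0.9986), Cdk18 (0.9982) and Lat2 (0.997), and Cebpb by Unc50 (0.9866), Ciapin1 (0.9852) and Gnb2 (0.9851). Cebpd was followed by Fabp3 (0.997), Rnf135 (0.9968) and Mitd1 (0.9967), Maf by Ccdc50 (0.9945), Spred1 (0.9935) and Igf2bp2 (0.9931), and Runx1 by Nav2 (0.9856), Odf2 (0.9855) and Prr12 (0.9827). Klf4 was followed by Plk2 (0.9915), Zfp319 (0.9885) and Calcrl (0.9865), Klf2 by Id3 (0.9865), Ehmt2 (0.9786) and Ash2l (0.9778), and Bhlhe41 by Peli3 (0.9867), Mogs (0.9866) and Elk3 (0.9864). Over all 15 libraries 848 genes had an r above 0.95 with Maf and 747 with Cebpa, but 28 with Klf2 and 25 with Cebpb. Without PBS replicate 3 the first gene stayed for Cebpa and Klf4 (Mfsd11 and Plk2) and changed for the other 7, and the numbers of genes with an r above 0.95 became 1036 for Maf, 1175 for Cebpa, 50 for Klf2 and 108 for Cebpb.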

How the data were processed

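RNA of 15 BMDM libraries, 3 for each of 5 conditions, was made into stranded mRNA libraries and sequenced paired-end. The authors aligned reads with STAR to GRCm38 and deposited raw counts per gene, one column per library. How reads were counted (program, annotation, strand) is not given in the sources used here. The authors normalized and tested with DESeq2. They disregarded its p-values, since the libraries were technical replicates, and used a log2 fold change past 2 in either direction alone. The depth of 40934540 to 80925478 counts per library, without molecular identifiers, bounds counting error only.

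Symbols, exon lengths and positions were taken from GENCODE M21 (51661 of 51763 identifiers matched). Genes were filtered with filterByExpr (minimum count 10, minimum total 15), leaving 16919. All 15 libraries were fitted together without covariates. Calls came from edgeR 4.0.16 (TMM, quasi-likelihood F-test, Benjamini-Hochberg over all tested genes) and fold changes, standard errors, 95% intervals and size factors from DESeq2 1.42.0, in R 4.3.3. RPKM used total counts and exon length, within the count table. Exact permutation tests used scipy 1.17.1, in Python 3.11.15, and figures matplotlib 3.10.9. The fits were also run on simulated counts with few changed genes and no library that stood apart. These cannot show how the fits behave with a library like PBS replicate 3. Motifs were searched in RefSeq promoter windows of GRCm38.p6.

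The 9 factors and the lists of partners and downstream genes were chosen with earlier results of these data known. All factors were named, and of both lists the 3 called genes with the largest rise and the 3 with the largest fall over PBS in each of dsHMGB1, LPS and LPS/IFNγ (mean of at least 100 normalized counts), with Irf8, Bhlhe40 and Csf1r always. A gene that this rule also names is not reported here. Alternatives were DESeq2 calls, RLE scaling, no filter, 1 CPM in 3 libraries, protein-coding genes only, fits on the 2 groups compared, a replicate block and leaving out each library. Total-count scaling was added after the data were seen. Same-numbered libraries share only a number.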

Additional observations from a re-analysis of the deposited data

How the results depend on the processing

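Values here are edgeR's log2 differences or counts of calls, and the cause of each shift was not tested. For frHMGB1 against PBS, where no factor was called, signs near 0 turned. Without a filter on low counts Spi1 was -0.0023, Cebpa -0.0406, Cebpd -0.0533, Runx1 -0.0393, Irf8 -0.014 and Id3 -0.025. With protein-coding genes alone Spi1 was -0.0254, Cebpa -0.0594, Cebpd -0.0821, Runx1 -0.0494, Irf8 -0.0294, Bhlhe40 -0.0005 and Id3 -0.0567. With 1 CPM in 3 libraries Cebpa was -0.0227, Cebpd -0.0417, Runx1 -0.0158 and Id3 -0.0154, and with only the 2 groups fitted -0.0178, -0.0494, -0.0046 and -0.0205. Cebpd was -0.0241 with DESeq2 and -0.0216 with RLE, and Cebpb 0.0683 with total-count scaling. Between LPS/IFNγ and LPS, Spi1 was 0.0128 and Cebpa 0.009 with 1 CPM in 3 libraries, and 0.0399 and 0.0361 with protein-coding genes alone. Total-count scaling turned Csf1r in dsHMGB1 to -0.1433, Cebpb and Bhlhe40 in LPS/IFNγ to -0.0982 and -0.2016, and Maf and Klf2 in dsHMGB1 against LPS to 0.2337 and 0.1869. It moved the partners higher from 15 to 9 in LPS and from 19 to 11 in LPS/IFNγ, the downstream genes lower from 1 to 3 in dsHMGB1, from 2 to 6 in LPS and from 3 to 8 in LPS/IFNγ and those higher in frHMGB1 from 2 to 1, and the factors of dsHMGB1 against LPS/IFNγ from 5 to 8 higher and from 1 to 0 lower (0 also with no filter). The calls over all genes under this scaling are given above for dsHMGB1, LPS and LPS/IFNγ. With only the 2 groups fitted, on fewer samples, 1 factor (Cebpa) in place of 3 was called lower in dsHMGB1 than in PBS. The calls of Klf2 (-0.93, adjusted p = 0.0508) and Bhlhe41 (-0.28, adjusted p = 0.242) were lost with only the 2 groups fitted. That fit gave 0 and 1 downstream genes lower in LPS and LPS/IFNγ, 0 higher in frHMGB1 (0 also with protein-coding genes alone), 3 factors lower in dsHMGB1 than in LPS (2 with DESeq2) and 1 factor higher in LPS/IFNγ than in LPS (1 also with 1 CPM in 3 libraries and with protein-coding genes alone). DESeq2 called 1 partner higher in frHMGB1. Over all genes, frHMGB1 against PBS had 222 higher and 963 lower, against 432 higher with DESeq2, 96 higher with no filter, 547 lower with 1 CPM in 3 libraries, 41 and 29 with protein-coding genes alone and 7 and 182 with 2 groups fitted. With 2 groups fitted the counts were 2493 and 2254 in dsHMGB1, 3685 lower in LPS, 3224 lower in dsHMGB1 against LPS, 4296 and 4284 in dsHMGB1 against LPS/IFNγ, and 4564 and 4435 in LPS/IFNγ against LPS. Leaving out single libraries gave, for frHMGB1 against PBS, -0.0588 to 0.2724 for Spi1, -0.0294 to 0.1166 for Cebpa, -0.2784 to 0.6378 for Cebpb, -0.1784 to 0.4534 for Cebpd, -0.0795 to 0.1095 for Runx1, -0.1953 to 0.4151 for Klf4, -0.276 to 0.1908 for Klf2, -0.1792 to 0.2291 for Bhlhe40, -0.3345 to 0.1129 for Tfeb, -0.1816 to 0.5163 for Id3 and -2.073 to 0.6304 for Il6. The log2 ratios there ranged from -0.115 to 0.524 for Cebpb to Cebpa, -0.079 to 0.336 for Cebpd to Cebpa and -0.395 to 0.843 for Klf4 to Klf2, and the calls from 0 to 3 factors higher, 0 to 3 partners higher, 0 to 2 partners lower and 1 to 9 downstream genes higher. For dsHMGB1 against LPS, Spi1 ranged from -0.0344 to 0.1355, Maf from -0.1937 to 0.0086 and the factors lower from 0 to 3. The other ranges were 1 to 2 downstream genes lower in dsHMGB1, 0 to 1 factors lower in dsHMGB1 than in LPS/IFNγ and 0 to 1 higher in LPS/IFNγ than in LPS. The 30 pairs of same-numbered libraries had correlations of -0.696 to 0.672, 8 of them above 0.1, and 7 of 15 libraries correlated best with their own number. Under a replicate block Cebpb in frHMGB1 was 0.0555, and Runx1 in dsHMGB1 against frHMGB1 lost its call (adjusted p = 0.0567 against 0.0484 by edgeR). Of the 9 factors, Klf2 had the fewest reads, 48 to 55 per library in LPS/IFNγ, and of the genes named Il6 and Lcn2 had at most 8 and 2 in PBS, which limits their precision.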
